A study of Bos taurus with 8 samples.

Results

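Airway secretory cell products were examined in the lungs of newborn calves through 9 named genes, SCGB1A1, SCGB3A1, SCGB3A2, BPIFA1, BPIFB1, MUC5B, PIGR, LTF and TFF3. Probes were assigned to a gene by pairing the RefSeq accession that names the probe's target with a gene symbol. This gave 15 probes for 6 of the 9 genes, out of 43653 probes and 11054 genes with a paired probe. The accession table pairs no probe with SCGB3A1, SCGB3A2 or MUC5B, which were not analysed here. All 15 probes passed the filter on low signal, which asked for 4 or more of the 8 arrays with a spot well above background, as did 35636 probes and 9867 genes in all.

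Total RNA from whole lung was hybridised to 1-colour Agilent bovine arrays, 1 array per animal. The groups were 4 cloned Holstein calves with respiratory failure and 4 healthy, naturally conceived Holstein calves, all labelled 4 days old. According to the series text, respiratory failure killed the clones at some point in that period, and the healthy calves were slaughtered at its end. Cloning, disease and manner of death therefore go together in the groups and cannot be told apart.

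The conducting airways are lined by ciliated cells and by secretory cells, and submucosal glands open between them. Club cells release secretoglobins, goblet cells release mucins and trefoil peptides, and the serous cells of the glands release antibacterial proteins. Several of these products are also made by other cells: lactoferrin is stored in the granules of neutrophils, and the polymeric immunoglobulin receptor is found on many mucosal epithelia.

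The 6 measured genes fell into 3 patterns. The club cell secretoglobin SCGB1A1 was lower in clones, by 1.80 on the log2 scale, or 3.49-fold. BPIFA1, BPIFB1 and PIGR were low in clones 2, 3 and 4 but not in clone 1, where BPIFA1 and PIGR lay above every healthy calf. LTF and TFF3 were higher in most clones. No gene passed the test: 0 of 6 genes and 0 of 15 probes had an adjusted p under 0.05 (limma, adjusted over all 35636 kept probes), where 0.182% of all genes and 0.177% of all probes did. An unadjusted p under 0.05 was reached by 3 of the 6 genes and 9 of the 15 probes, against 13.0% of all genes and 13.2% of all probes. Of the genes SCGB1A1 and BPIFB1 were lower in clones and LTF higher, where 6.58% of all genes were lower and 6.37% higher at that level. Lower in clones at that level were 4 of the 15 probes, all of SCGB1A1 and BPIFB1, against 7.09% of all probes. Higher at that level were 5 of the 15, of LTF and TFF3. Probes of 1 gene measure the same transcript, so the 9 probes are not separate results.

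Levels are log2 processed signal relative to the 75th percentile of the same array, so a level of 1 is a signal 2-fold above that percentile. Differences are clone minus normal. Relative to that percentile the spike-in control probes were 0.67 higher on the clone arrays, and centring on them instead shifted the median of all kept probes to -0.71, against -0.021 as reported. Signs near 0 therefore hold only relative to the percentile. The clone arrays lay on 1 slide and the normal arrays on another, so slide and group cannot be told apart. Clones also varied more: each correlated with the other clones at a mean r of 0.92 to 0.95, and each normal animal with the other normal animals at 0.99. The count of changed probes was 63 over all 8 animals, 2566 (7.20% of probes) without clone 1 and 445 without clone 3. Lung identity was checked through 7 alveolar type II cell markers, all well above background in all 8 animals, among them SFTPC between 7.45 and 7.94 in clones and between 7.65 and 7.88 in normal animals.

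SCGB1A1, also called uteroglobin, is the most abundant product of club cells and binds lipids in airway fluid. Its brighter probe measured 0.93, 1.29, 2.37 and 0.34 in clones 1 to 4, against 2.18, 3.47, 2.58 and 3.91 in normal animals 1 to 4. Clones 1, 2 and 4 were below every normal animal, and clone 3 lay between normal animals 1 and 3, so the groups overlapped. The means were 1.23 ± 0.85 in clones and 3.04 ± 0.80 in normal animals (SD, n = 4 each), a difference of -1.80 (SE 0.51, 95% interval -2.96 to -0.65, adjusted p = 0.202). Its second probe gave -1.91 (95% interval -3.15 to -0.67, adjusted p = 0.206) with the same 3 clones below every normal animal. In whole lung, fewer secretory cells and less RNA per cell cannot be told apart. The sign of SCGB1A1 was negative in all 20 alternatives, between -2.49 and -1.51. It passed the threshold with centring on the spike-ins (adjusted p = 0.0164) and with array weights (-2.33, adjusted p = 0.0115), settings in which 28.2% and 16.0% of all genes passed with lower values in clones.

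**Figure D1:**
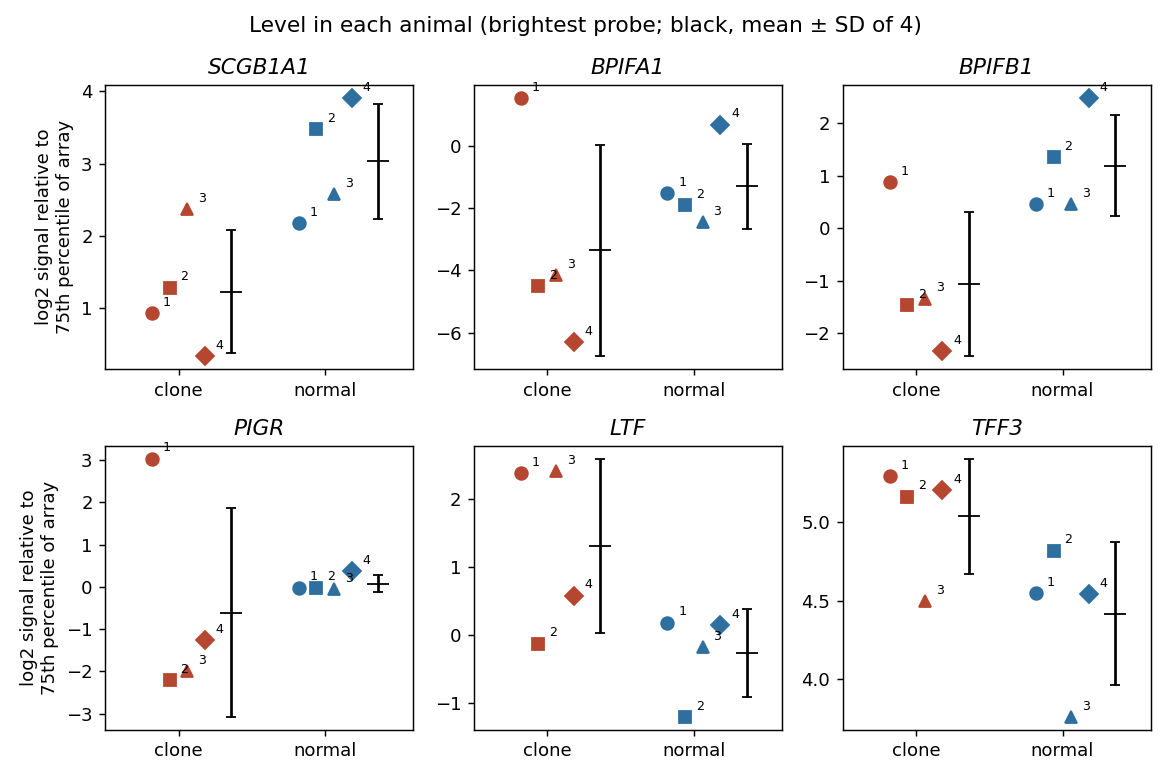
Level of each gene in each animal (vertical axis, log2 signal of its brightest probe relative to the 75th percentile of the array), clones left and normal animals right, with the animal number beside each point and the mean ± SD of 4 animals in black. Clone 1 stands above every normal animal for BPIFA1 and PIGR while clones 2, 3 and 4 stand below them all, and for SCGB1A1 only clone 3 reaches the range of the normal animals.

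Other secretoglobins on the array gave values of the same sign. SCGB1D and SCGB2A2 are the other 2 secretoglobin genes with a kept probe, named here after their values were seen. SCGB1D measured 1.12, 4.23, 3.13 and 4.17 in clones 1 to 4, against 5.72, 5.90, 4.69 and 5.41 in normal animals 1 to 4, and every clone was below every normal animal. Its difference was -2.27 (95% interval -3.77 to -0.76, adjusted p = 0.211), and its other 2 probes gave -2.31 and -2.30. SCGB2A2 was between 0.93 and 1.31 in clones and between 1.89 and 3.23 in normal animals, a difference of -1.39 (95% interval -2.05 to -0.73, adjusted p = 0.119). Groups that do not overlap with clones lower were found in 4.76% of all genes.

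BPIFA1 and BPIFB1 encode secreted proteins of the same lipid-binding family. BPIFA1, or SPLUNC1, is released onto the airway surface, where it acts against bacteria and limits sodium uptake, and BPIFB1 is made by goblet and gland cells. They lie on the same chromosome with 1 protein-coding gene between them in RefSeq. BPIFA1 measured 1.56, -4.50, -4.15 and -6.30 in clones 1 to 4, against -1.50, -1.89, -2.44 and 0.70 in normal animals 1 to 4. Clones 2, 3 and 4 were below every normal animal and clone 1 above every one, and in clone 4 the spot was not well above background. The range within the clones was wider than the distance between the group means, which were -3.35 ± 3.41 in clones and -1.28 ± 1.37 in normal animals (SD, n = 4 each). The difference was -2.07 (SE 1.54, 95% interval -5.58 to 1.45, adjusted p = 0.623). It was -1.08 without clone 4, -1.16 and -0.85 with normexp background correction (75th percentile and quantile), and -4.23 with array weights.

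BPIFB1 measured 0.88, -1.46, -1.34 and -2.34 in clones 1 to 4 on its brighter probe, against 0.47, 1.36, 0.46 and 2.49 in normal animals 1 to 4. Clone 1 lay inside the range of the normal animals and the other 3 clones below it. The means were -1.07 ± 1.37 in clones and 1.19 ± 0.96 in normal animals (SD, n = 4 each), a difference of -2.26 (SE 0.71, 95% interval -3.88 to -0.63, adjusted p = 0.238), or 4.78-fold. Its second probe gave -2.91 (95% interval -5.03 to -0.78, adjusted p = 0.241), with levels between -5.80 and -1.08 in clones and between -1.78 and 0.55 in normal animals. With normexp and quantile normalization this difference was -1.73. Of the other BPIF genes with a kept probe, named after their values were seen, BPIFB2 differed by 0.06 and 0.16 on its 2 probes. BPIFA2C differed by 0.04, and BPIFA2B by 0.07 on its brighter and 1.61 on its dimmer kept probe (adjusted p = 0.307 for the second).

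PIGR carries polymeric IgA and IgM across epithelial cells into the airway lumen, and its outer part is released with them as secretory component. It measured 3.04, -2.22, -2.00 and -1.26 in clones 1 to 4. In normal animals 1 to 4 it measured -0.016, -0.019, -0.057 and 0.37. The normal animals thus lay close together, clone 1 was 2.97 above their mean, and clones 2, 3 and 4 stood at -2.29, -2.07 and -1.33 relative to it. The SD was 12.2 times as large in clones as in normal animals, while the median ratio over all 9867 genes was 3.21. The difference of the means was -0.68 (SE 1.04, 95% interval -3.06 to 1.70, adjusted p = 0.832). The other 2 probes gave -0.72 and -0.43, with clone 1 at 2.95 and 2.96 above the normal mean. The dimmest of the 3 was not well above background in clone 2, and gave 0.14 with normexp and quantile normalization.

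The calls for these 3 genes turned on clone 1. Without it PIGR differed by -1.90 (adjusted p = 0.0146), BPIFA1 by -3.70 (adjusted p = 0.0433) and BPIFB1 by -2.91 (adjusted p = 0.0280), and all 3 passed, as did 3.43% of all genes in the direction of lower in clones. SCGB1A1 did not pass without clone 1 (-1.70, adjusted p = 0.118). Other clones moved the values the opposite way: PIGR differed by -0.14 without clone 2 and -0.22 without clone 3, and BPIFA1 by -1.08 without clone 4. Leaving out any 1 of the other 7 animals gave 0 calls among the 6 genes, and the emphasis on clone 1 was set after these values were seen. Clones 2, 3 and 4 were all below every normal animal for these 3 of the 6 genes, and for 14.9% of all genes. The order with clone 1 above every normal animal as well held for 2 of the 6 genes and for 7.01% of all genes. Array weights, under which 31.3% of all probes passed, and centring on the spike-ins, under which 30.0% did, gave 4 and 2 calls among the 6 genes, all lower in clones.

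**Figure D2:**
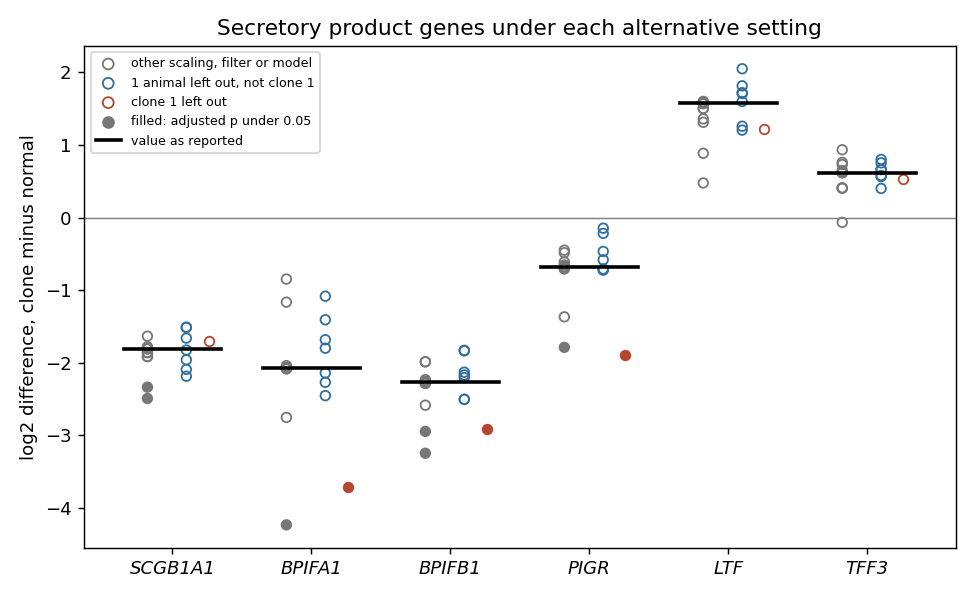
Log2 difference, clone minus normal (vertical axis), of the 6 genes under each alternative setting, with the reported value as a black bar, other scalings, filters and models in grey, 1 animal left out in blue, clone 1 left out in red, and filled symbols where the adjusted p was under 0.05. PIGR stands at -1.90 and BPIFA1 at -3.70 without clone 1, and the value of TFF3 crosses 0 in 1 setting.

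LTF encodes lactoferrin, an iron-binding antibacterial protein of gland serous cells, milk and neutrophil granules. It measured 2.38, -0.13, 2.41 and 0.58 in clones 1 to 4, against 0.18, -1.20, -0.18 and 0.14 in normal animals 1 to 4. Clones 1, 3 and 4 were above every normal animal, with clones 1 and 3 almost level, and clone 2 was within the normal range. The means were 1.31 ± 1.28 in clones and -0.26 ± 0.65 in normal animals (SD, n = 4 each), a difference of 1.57 (SE 0.62, 95% interval 0.17 to 2.98, adjusted p = 0.325), or 2.98-fold. Its 5 probes gave differences between 1.28 and 1.89, and 4 of the 5 had an unadjusted p under 0.05. The probe with 1.89 was not well above background in normal animal 2, and the dimmest of the 5, with 1.28, in clone 2 or in normal animals 2 and 3. With normexp and 75th percentile centring these 2 probes gave 0.046 and -0.44, and with array weights the dimmest gave -0.16. On the brightest probe the sign was positive in all 20 alternatives, with a lowest value of 0.48 with array weights, a setting that gave clones 1 and 3 weights of 0.12 and 0.099 and the other 6 animals weights between 1.55 and 4.26. Centred on the spike-ins the difference was 0.89.

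TFF3 is a trefoil peptide that goblet and gland cells secrete with mucin and that takes part in the repair of mucosal surfaces. Its brighter probe measured 5.30, 5.16, 4.50 and 5.20 in clones 1 to 4, against 4.55, 4.82, 3.76 and 4.54 in normal animals 1 to 4. Clones 1, 2 and 4 were above every normal animal and clone 3 was inside their range. The means were 5.04 ± 0.37 in clones and 4.42 ± 0.46 in normal animals (SD, n = 4 each), a difference of 0.62 (SE 0.28, 95% interval -0.022 to 1.26, adjusted p = 0.398), which became -0.064 when centred on the spike-ins and 0.40 without normal animal 3. The second probe measured 2.75, 2.38, 1.70 and 2.44 in clones 1 to 4, against 1.32, 1.57, 0.39 and 0.99 in normal animals 1 to 4. On that probe every clone was above every normal animal, as held for 4.76% of all kept probes and 5.09% of all genes, and the difference was 1.25 (95% interval 0.53 to 1.97, adjusted p = 0.175), or 0.56 when centred on the spike-ins. TFF3 was the sole gene of the 6 whose SD was smaller in clones than in normal animals, with a ratio of 0.80.

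TFF2, the trefoil gene next to TFF3 in the RefSeq table and best known from gastric mucus, differed in the opposite sign. It was between -8.38 and -6.05 in clones and between -5.75 and -3.32 in normal animals, a difference of -2.12 (95% interval -3.61 to -0.63, adjusted p = 0.229). Only 2 clones had a TFF2 spot well above background, against all 4 normal animals, so background limits the size of its difference, which was -0.44 with normexp and quantile normalization.

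**Figure D3:**
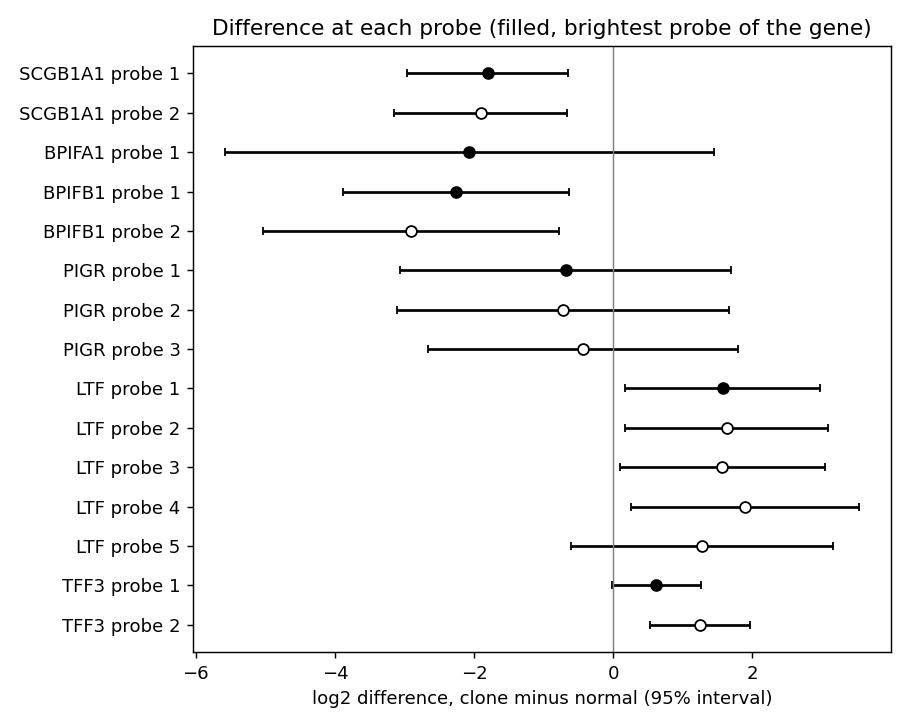
Log2 difference, clone minus normal (horizontal axis), at each of the 15 probes with its 95% interval from limma, not adjusted for the number of probes; filled points are the brightest probe of each gene. Probes of 1 gene gave the same sign in these values, and the intervals of the 3 PIGR probes and the BPIFA1 probe are the widest.

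The profiles of the 6 genes over the 8 animals were set against those of 9630 other genes by the mean absolute difference between log2 profiles, each centred on its own mean. This measure includes the difference between the groups, and it says nothing of shared control. Nearest to SCGB1A1 were COL17A1 (0.26), ADRB3 (0.33) and GPBAR1 (0.36), with log2 differences of -1.28, -2.45 and -1.34. Nearest to BPIFA1 were IL1R2 (0.70), SLC28A3 (0.80) and VNN2 (0.90), and PIGR and BPIFB1 held ranks 5 and 14 (0.92 and 1.02). For BPIFB1 the measure named the trefoil gene TFF2 (0.42) and the receptors CCR1 (0.49) and C5AR2 (0.51). TFF2 was not well above background in 2 clones, and BPIFA1 was not in clone 4. Distances and ranks that involve either gene are therefore uncertain.

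Nearest to PIGR were TNFAIP6 (0.33), the complement factor CFB (0.36) and KRT86 (0.38). LTF was nearest to RHOD (0.33), NTMT1 (0.37) and CCNE1 (0.37), which differed by 1.39, 1.00 and 1.13. TFF3 was nearest to GADD45GIP1, ALCAM and PRKRIP1, all within 0.17 to 0.18, a small distance that goes with its narrow range. LTF and SCGB1A1 were 1.69 apart, and SCGB1A1 held rank 9388 among the genes set against LTF.

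Some further genes of secretory and gland cells had the same order as PIGR, and most did not. Of 47 listed genes 24 had a kept probe, 14 of them with a negative difference and a median of -0.085, against 51.6% negative and a median of -0.016 over all genes. Over all probes 0 of the 24 passed (limma), and 6 had an unadjusted p under 0.05, all lower in clones, against 6.58% of all genes. Without clone 1 the median of the 24 was -0.51, with 19 negative and 4 that passed, all lower in clones, where 3.43% of all genes passed in that direction. TCN1, a vitamin B12 binding protein of gland cells and neutrophils, measured -0.073, -4.02, -4.22 and -4.02 in clones 1 to 4, against -1.19, -1.10, -1.35 and -0.61 in normal animals. Clone 1 was above and clones 2, 3 and 4 below every normal animal for TCN1, for the secretory cell transcription factor FOXA3, for the epithelial keratin KRT7 and for the secreted inhibitor WFDC2. These are 4 of the 24 genes, where 7.01% of all genes had that order, and the last 3 were named after their values were seen. The order was not particular to secretory genes. It was also found in 2 of 7 alveolar type II markers (SFTPA1 and ABCA3) and in 1 of 16 neutrophil markers (S100A9). Among ciliated, basal, general epithelial, B and plasma cell and stomach markers 0 genes had it. Without clone 1 TCN1 differed by -3.02 (adjusted p = 0.00134), FOXA3 by -1.78 (adjusted p = 0.0229) and KRT7 by -1.84 (adjusted p = 0.0272), while WFDC2 did not pass (-0.28, adjusted p = 0.246). The membrane mucin MUC15, also named after its values were seen, was 2.89 in clone 1, between -2.02 and -0.95 in clones 2, 3 and 4, and between 0.45 and 1.05 in normal animals. Another membrane mucin, MUC1, did not have that order. On its brightest probe it was 4.48 in clone 1, between 3.16 and 3.32 in clones 2, 3 and 4, and between 2.77 and 3.28 in normal animals. MUC1 differed by 0.47, or by -0.22 when centred on the spike-ins.

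Among the club cell cytochromes CYP4B1 had another order. CYP4B1, an enzyme that club cells carry in quantity, was 0.37, 4.16, 4.24 and 4.91 in clones 1 to 4, against 5.73, 5.83, 5.14 and 5.29 in normal animals. Every clone was below every normal animal, an order held by 4.76% of all genes. Clone 1 was the lowest, as it was for SCGB1D. The difference of CYP4B1 was -2.07 (95% interval -4.09 to -0.058, adjusted p = 0.365). CYP2B6 differed by -2.32 (adjusted p = 0.245), with normal animal 3 at -1.87 inside the range of the clones, which ran from -2.50 to -1.01. The aldehyde dehydrogenase ALDH1A1 differed by -0.76 (adjusted p = 0.248), with every clone below every normal animal, and the protease inhibitor SLPI by -1.24 (adjusted p = 0.342). SPDEF, a regulator of goblet cells, was higher in clones 1 and 3 than in any normal animal and differed by 0.91 (95% interval -0.42 to 2.23, adjusted p = 0.560).

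**Figure D4:**
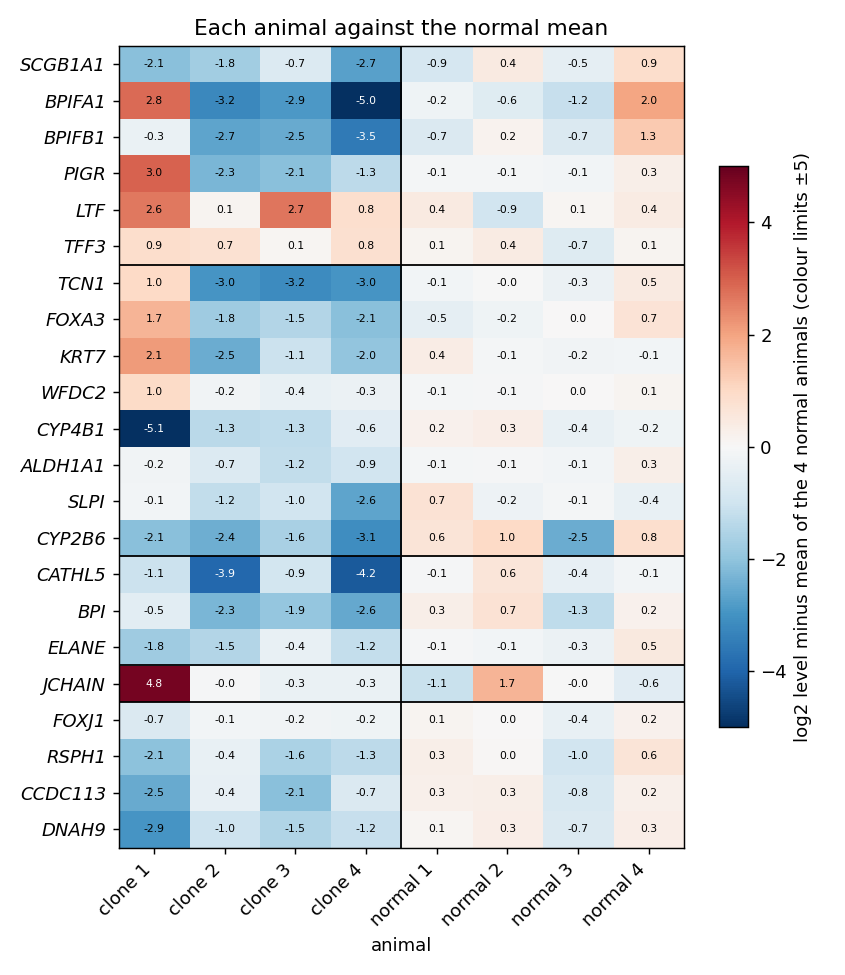
Log2 level of each gene (rows) in each animal (columns) minus the mean of the 4 normal animals, clones left of the line; from top to bottom the blocks are the 6 secretory products, other secretory cell genes, neutrophil genes, JCHAIN and ciliated cell genes. PIGR, BPIFA1, TCN1, FOXA3, KRT7 and WFDC2 are red in clone 1 and blue in clones 2, 3 and 4, while CYP4B1 and the 4 ciliated cell genes drawn are lowest in clone 1.

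Markers of other cell types were read beside these genes, and their part in the results was not tested. Of 9 measured markers of ciliated airway cells, all 9 were lower in clones with a median of -1.09, where 51.6% of all genes were lower. An unadjusted p under 0.05 (limma) was reached by 5, against 6.58% of all genes lower at that level. RSPH1 differed by -1.33 (adjusted p = 0.249) and the regulator FOXJ1 by -0.31 (adjusted p = 0.588). The mean level of the list was between -3.03 and -1.69 in clones and between -2.03 and -1.05 in normal animals, with clone 1 the lowest, whereas BPIFA1 and PIGR were highest in clone 1. Within the list the exception was TPPP3, where clone 3 was the lowest. Of 8 markers of basal cells 3 were lower in clones, with a median of 0.054, against the same 51.6% of all genes. Of 9 general epithelial markers 2 were lower, with a median of 0.23. Neither of these 2 lists held a gene with an unadjusted p under 0.05 (limma), against 13.0% of all genes. Both medians were below 0 when centred on the spike-ins (-0.63 and -0.46).

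LTF was read against neutrophil genes, since neutrophils also store lactoferrin. Of 16 measured neutrophil markers 13 were lower in clones, with a median of -1.25, where 51.6% of all genes were lower. An unadjusted p under 0.05 (limma) was reached by 7, all lower, against 6.58% of all genes lower at that level. The cathelicidin CATHL5 was 0.39, -2.46, 0.57 and -2.74 in clones 1 to 4, against 1.40, 2.06, 1.06 and 1.33 in normal animals (difference -2.53, adjusted p = 0.229). All clones were below all normal animals for CATHL5, an order held by 4.76% of all genes. Clones 1 and 3, where LTF was highest, had more CATHL5 than clones 2 and 4. The bactericidal protein BPI differed by -1.83 and the elastase ELANE by -1.20 (adjusted p = 0.219 and 0.190). The 3 markers with a higher mean in clones, named after their values were seen, were MPO (0.46), MMP9 (0.29) and S100A12 (0.20). In clone 1, 4 of the 16 markers (MMP9, S100A8, S100A9 and S100A12) lay above every normal animal and 5 lay below every one. In clone 3 these numbers were 1 and 10. The mean of the neutrophil list was between -2.94 and -0.76 in clones and between -1.30 and -0.40 in normal animals, and all 16 markers were well above background in at least 3 clones. Without clone 1 their median was -1.22 and 3 passed, all lower in clones, against the same 3.43% of all genes.

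PIGR was read against B and plasma cell genes, since the receptor carries their product. JCHAIN, which joins the units of polymeric immunoglobulin, was 2.85, -1.99, -2.26 and -2.28 in clones 1 to 4, against -3.06, -0.23, -1.95 and -2.52 in normal animals (difference 1.02, 95% interval -1.67 to 3.71, adjusted p = 0.768). Clone 1 was above every normal animal and the other clones were within their range. Of 7 measured B and plasma cell genes 3 were lower in clones, with a median of 0.073, where 51.6% of all genes were lower. An unadjusted p under 0.05 (limma) was reached by 0 of the 7, against 13.0% of all genes. Their mean was 0.55 in clone 1, between -1.83 and -1.67 in the other clones, and between -1.62 and -0.77 in normal animals. In clone 1, 5 of the 7 lay above every normal animal and 1, CD79A, lay below every one. In clone 3 these numbers were 3 and 2. JCHAIN and POU2AF1 lay furthest above the normal mean in clone 1 (4.79 and 4.00). In clone 1 PIGR and JCHAIN thus both lay above the other 7 animals, while in clones 2, 3 and 4 PIGR lay below every normal animal and JCHAIN did not.

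Stomach genes were read beside TFF3. Of 8 measured genes of the abomasum and stomach, TFF2 itself among them, 7 were lower in clones, with a median of -0.86, where 51.6% of all genes were lower. The milk-clotting enzyme CYM had the largest difference of the list and passed (-6.97, adjusted p = 0.0180 by limma), as did 0.182% of all genes. SST, CLDN18 and GAST, named after their values were seen, differed by 0.13, -0.043 and -0.15. The mean of this list was between -4.21 and -3.96 in clones and between -2.87 and -2.08 in normal animals. TFF3 was higher in most clones, and a relation between it and that list was not tested.

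A list of 12 regulators of airway epithelium held transcription factors and 1 gene that is not a factor, the Notch ligand JAG1. Of the 12, 7 were lower in clones, JAG1 among them (-0.13), with a median of -0.073, where 51.6% of all genes were lower. An unadjusted p under 0.05 by limma was reached by 0 of the 12, against 13.0% of all genes. ELF3, an epithelial factor, differed by 1.06 (adjusted p = 0.397) and SOX2, a factor of the conducting airways, by -0.86 (adjusted p = 0.459). NKX2-1, on which club and type II cells both depend, differed by -0.31 (adjusted p = 0.667).

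**Figure D5:**
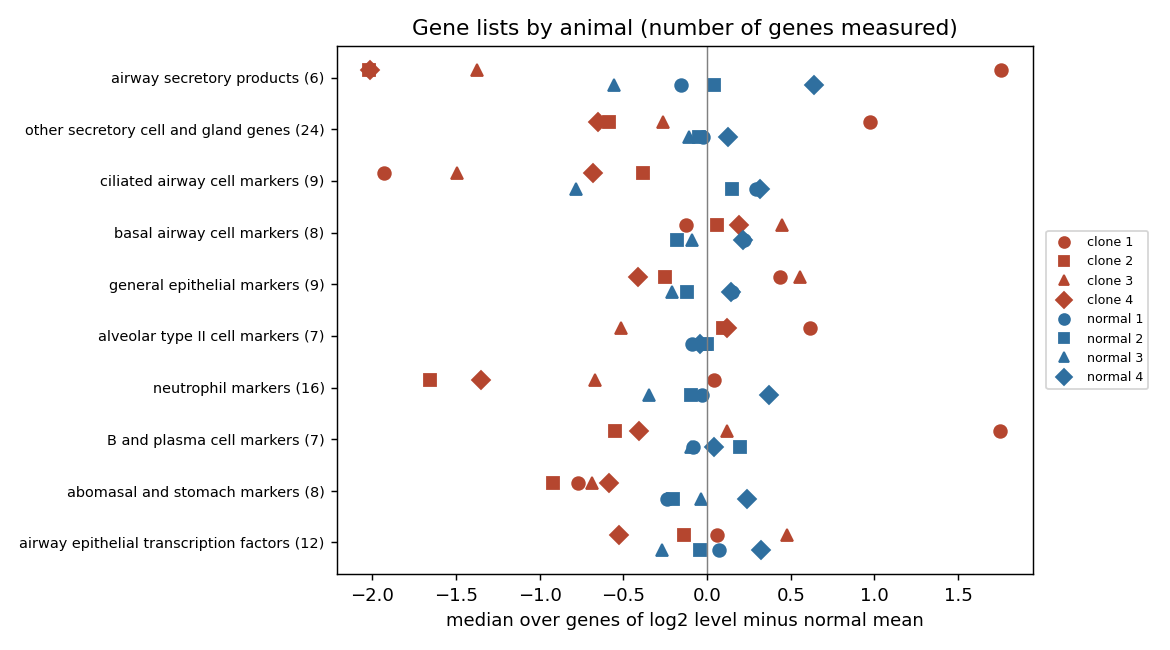
For each gene list (rows, number of measured genes in brackets), the median over its genes of log2 level minus the mean of the normal animals (horizontal axis), 1 point per animal, clones in red above normal animals in blue. Clone 1 stands far to the right for the airway secretory products, the other secretory genes and the B and plasma cell genes, and far to the left for the ciliated cell markers.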

How the data were processed

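The authors deposited 1 scanner output per array. Per the file headers, its processed intensity is background-subtracted, with no step that spans arrays. Agilent Feature Extraction 10.7 is named in the submitters' processing notes. The authors' deposited value table holds log2 values, made alike between arrays by a step not given in the sources used here: its columns have medians of 7.89 and 75th percentiles of 10.54, correlate with the log2 intensity of their array at r of 0.999 or more, and served only as an alternative. Its scale is thus log2 with the direction unchanged.

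Control spots, and 2 to 21 spots per array flagged as outliers by the scanner software, were left out, and no spot was saturated. Log2 intensity was centred on the 75th percentile of each array and repeat spots of 1 probe were averaged. Probes well above background on at least 4 of 8 arrays were kept, 35636 of 43653. Accessions were paired with symbols through a RefSeq table of the assembly ARS-UCD2.0. 1 symbol was obtained by 23492 probes and none by 20161, 9867 genes had a kept probe, and the array's own build differs, so no coordinates are given. Each gene was represented by its brightest kept probe, by mean level over all arrays. Clones were compared with normal animals by limma 3.58.1 in R 4.3.3, with group as the sole term and Benjamini-Hochberg adjustment over all kept probes.

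The members, the lists of genes and the naming rule were chosen with earlier results of these data known. The rule named all members, up to 6 genes per list with the smallest p, of which part are printed, CATHL5, LCN2, FOXJ1, SPDEF and JCHAIN whatever their p (LCN2 had no kept probe), and the 3 genes most like each member. The normexp alternatives used median spot signal, because the files hold no mean signal. In data simulated on 35591 probes with the pooled spread, log2 decreases of 1, 2, 3 and 4 were each given to 50 probes, of which 10, 30, 43 and 46 were called, with 6 false calls among 135. A pooled spread leaves out the wider spread of the clones, whose median SD ratio to normal animals was 3.21 over all genes. These counts may therefore not carry over to the data. The number of arrays, 4 per group, limits precision.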

Additional observations from a re-analysis of the deposited data

Results flagged for a closer look

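In 30 groups of 4 animals, 1 for each probe of the secretory genes in each group, 3 animals stood apart from the other 3 by a gap larger than Dixon's 95% limit for 4 values. Chance gives about 1 in 20. PIGR in normal animal 4 was 0.37 with the next at -0.016, which made up 0.904 of a narrow range. On its second probe PIGR in clone 1 was 2.86 with the next clone at -1.51 (0.834 of the range). TFF3 in clone 3 was 4.50 on its brighter probe, below the next clone at 5.16 (0.834 of the range).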

How the results depend on the processing

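On their brightest probes all 6 genes kept their sign under all alternatives run except TFF3, which was -0.064 when centred on the spike-ins. The filter on all 8 arrays removed BPIFA1. The count of the 6 genes that passed was 0 as reported, 2 centred on the spike-ins, 4 with array weights, and between 0 and 3 with 1 animal left out, 3 only without clone 1. It was 0 in the other alternatives. The count of all changed probes was 63. It was 10693 centred on the spike-ins (69 higher and 10624 lower), 0 with normexp and 75th percentile centring (2280 had an unadjusted p under 0.05), 25 with normexp and quantile normalization, 17 with the filter on all 8 arrays, 145 with trend and robust settings (85 higher and 60 lower) and 11141 with array weights (5439 higher and 5702 lower). With 1 animal left out it lay between 17 and 2566: 2566, 56, 445 and 32 without clones 1 to 4, and 18, 23, 31 and 17 without normal animals 1 to 4. The causes were not tested. The replicate number as a block gave 13 changed probes and 0 of the 6 genes. Deviations of same-numbered animals correlated at r of 0.092, 0.099, -0.20 and -0.099, and those of animals with unlike numbers at r between -0.18 and 0.17. These values show no pairing by number, but they cannot tell whether the numbers stand for one. The slide could not be used as a block, because each slide held 1 group.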
